A study of Pararge aegeria with 4 samples.

Results

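miR-10a and miR-993 (Pae-miR-10a and Pae-miR-993 in the counts) are the miRNAs of the insect Hox cluster that were read in both ovary libraries of the Speckled Wood butterfly, Pararge aegeria. They were taken by name from the deposited counts, and are 2 of the 67 miRNAs listed for St Hubert, 2 of the 81 listed for Zonza and 2 of the 91 listed in either. The libraries came from laboratory-reared stocks, St Hubert from Belgium and Zonza from Corsica, and RNA of each stock went into 1 small RNA and 1 mRNA library. The ovaries were those of a pair of mated females per stock at the peak of egg production, dissected free of fat and other tissue, and the St Hubert stock had been kept in the laboratory for longer. No treatment was given. The miRNA reads totalled 373413 for St Hubert and 1049925 for Zonza, which was 2.81 times as deep. There is no replicate, so no test between the populations was made. The 1 test given (of arm use) compares the reads of a pair of libraries. All intervals are 95% intervals that cover counting error only, not the spread within a population. PCR-amplified reads are not independent molecules, so the intervals can be too narrow even for counting error. In such whole-tissue libraries fewer cells of a type and less miRNA per cell cannot be told apart.

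A miRNA is cut from a hairpin precursor whose 5' and 3' arms each yield a short product, and usually one of them is kept in the Argonaute complex while the other is degraded. The kept product finds its target mRNAs mainly through its seed, bases 2 to 8 from the 5' end, so products with the same seed can bind the same short sites. miR-10 is among the oldest animal miRNAs and lies beside the Hox genes, the homeodomain transcription factors that pattern the body axis, in insects as in vertebrates. miR-993 is an arthropod relative of miR-10 in the same cluster. The other insect Hox cluster miRNAs, iab-4 and iab-8, come from opposite strands of a locus next to abdominal-A and Abdominal-B, which specify posterior segments.

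The mature products are shown first because the values by arm turn on them. They are the sequences deposited with the counts, written 5' to 3' with the seed in capitals, and they are the same in both libraries.
miR-10a 5' product: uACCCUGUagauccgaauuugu
miR-993 5' product: uACCCUGUagauccgggcuuuu
miR-10a 3' product: cAAAUUCGguucuagagagguuu
miR-993 3' product: gAAGCUCGucucuacagguaucu

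The 5' products of miR-10a and miR-993, both 22 bases long, were identical over their first 15 bases and so had the same seed, ACCCUGU. They differed at 4 of the last 7 bases, written with the miR-10a base first and counted from the 5' end: A16G, A17G, U18C and G21U. The 3' products, 23 bases each, were identical at 13 of 23 aligned positions with no shared run over 4 bases, and had different seeds. A shared run this long was rare among pairs of the listed miRNAs, since 10 of the 4095 pairs of 5' products shared 15 or more first bases. A shared seed was not rare, since 37 of the 91 listed miRNAs had a product whose seed another had on either arm.

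The precursors show where the products sit. They are given with both products in capitals.
miR-10a precursor: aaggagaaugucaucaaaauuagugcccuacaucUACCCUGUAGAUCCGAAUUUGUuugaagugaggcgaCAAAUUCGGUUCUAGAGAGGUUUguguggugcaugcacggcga
miR-993 precursor: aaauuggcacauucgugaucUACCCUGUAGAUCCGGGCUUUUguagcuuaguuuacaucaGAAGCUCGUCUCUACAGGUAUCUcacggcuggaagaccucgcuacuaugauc

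In the miR-10a precursor of 113 bases the products lie at positions 35 to 56 and 71 to 93, with 14 bases between them. In the miR-993 precursor of 112 bases (113 in the Zonza counts) they lie at 21 to 42 and 61 to 83, with 18 bases between them. The hairpins were alike in predicted structure. In the minimum free energy fold, 18 of the 22 bases of the 5' product paired with the 3' product in each, and the free energies were -37 kcal/mol for miR-10a and -35 kcal/mol for miR-993, close to the median of -37.6 kcal/mol over the 91 listed precursors (range -62.1 to -18.7 kcal/mol). The precursors were not placed on the genome here.

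miR-993 was the more abundant of the pair in both libraries. It had 4611 reads in St Hubert, or 1.23% of miRNA reads (Wilson interval 1.20% to 1.27%), and 8301 reads in Zonza, or 0.791% (0.774% to 0.808%). It ranked 5 of 67 in St Hubert and 6 of 81 in Zonza. miR-10a had 473 reads in St Hubert, or 0.127% (0.116% to 0.139%), and 658 reads in Zonza, or 0.0627% (0.0581% to 0.0676%). It ranked 23 in both libraries. miR-993 thus had 9.75 reads for each read of miR-10a in St Hubert (exact interval 8.87 to 10.7) and 12.6 in Zonza (11.7 to 13.7).

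**Figure D1:**
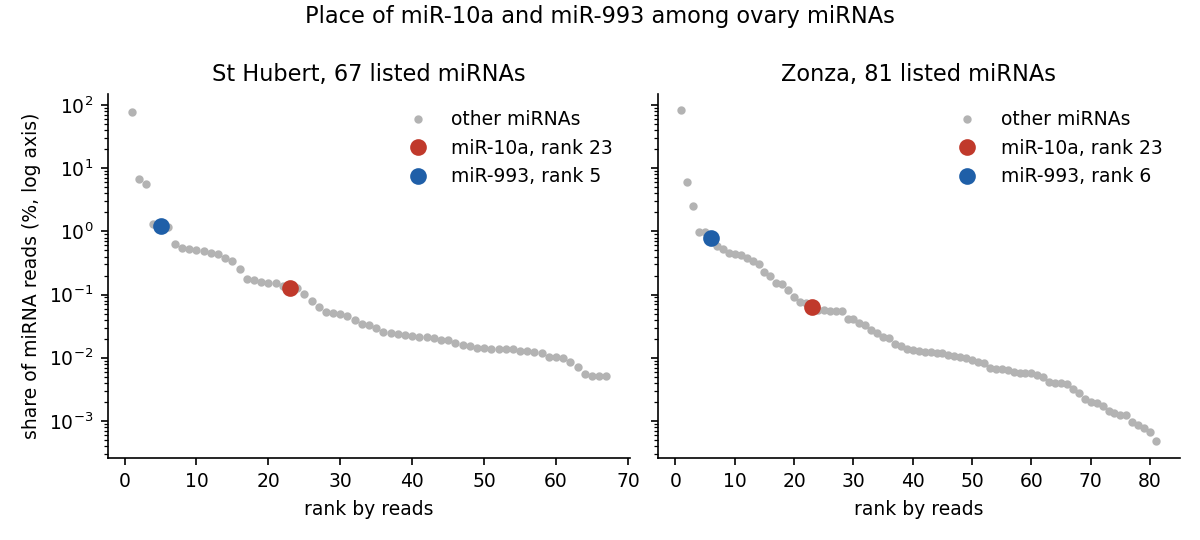
Share of miRNA reads (percent, log axis) against rank for each listed miRNA in the St Hubert and Zonza libraries, 1 point per miRNA. miR-993 sits at rank 5 and rank 6, just below the few dominant miRNAs, and miR-10a sits at rank 23 in both panels.

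The neighbours in rank were compared by counting error. In St Hubert, miR-184 above miR-993 had 4805 reads and miR-2755 below it 4440 reads. The ratio of miR-993 to miR-184 was 0.960 (exact interval 0.921 to 0.999), while the interval of its ratio to miR-2755, 0.996 to 1.08, held 1. In Zonza, miR-184 above it had 10233 reads and let-7 below it 6133 reads, and neither interval of the ratio held 1. miR-10a was indistinguishable from both neighbours in St Hubert, miR-317 with 512 reads and the newly described B-0042 with 472 reads. In Zonza it was below bantam, which had 771 reads, and its interval against miR-317, with 598 reads, held 1.

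iab-4 was the only other Hox cluster miRNA listed. It had 33 reads in Zonza, at rank 67 of 81, of which 27 were from the 5' arm and 6 from the other. It is not listed for St Hubert, where the same share would come to 11.7 reads and the lowest listed total is 19. The paper applied minimum read counts, so reads below that floor may have been left out. Whether the libraries differed in iab-4 cannot be told from these counts. iab-8 is listed in neither library.

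The arms were used in opposite ways. miR-993 was read mostly from its 5' arm, with 4000 reads against 611 on the 3' arm in St Hubert and 7186 against 1115 in Zonza. miR-10a was read mostly from its 3' arm, with 76 reads on the 5' arm against 397 on the 3' arm in St Hubert and 144 against 514 in Zonza. The 5' arm held 86.7% of the miR-993 reads of St Hubert (Wilson interval 85.7% to 87.7%) and 86.6% of those of Zonza (85.8% to 87.3%). For miR-10a it held 16.1% (13.0% to 19.6%) and 21.9% (18.9% to 25.2%). The hairpins with nearly the same 5' product therefore had different dominant products, with the seed ACCCUGU for miR-993 and AAAUUCG for miR-10a, a seed no other listed product had. Opposite arms are not particular to this pair. Of the 20 pairs of miRNAs listed in both libraries that share a seed on the same arm, 8 had opposite dominant arms in both libraries. They include this pair itself and that of miR-6307 with miR-993. The other 6 lay among miR-2b, miR-2c, miR-11, miR-13a and miR-308, which recur across them, so the 8 pairs are not independent.

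Both hairpins also kept more of their minor arm than most. Among miRNAs with at least 50 reads, the median minor arm share was 1.52% in St Hubert and 0.970% in Zonza. The minor arm of miR-10a, at 16.1% and 21.9%, ranked 13 of 54 and 8 of 62, and that of miR-993, at 13.3% and 13.4%, ranked 15 in both.

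Arm use was compared between the libraries over all 57 miRNAs listed in both, by a two-sided Fisher's exact test whose p-values were adjusted by the method of Benjamini and Hochberg. The adjusted p was under 0.05 for 5.26% of them, and for 6.52% of those with at least 50 reads in both. The reads of 1 library are set against those of another here, which says nothing of the spread within a population. Neither member was among those called. The 5' arm of miR-10a was 5.82 percentage points higher in Zonza, an odds ratio of 1.46 (exact interval 1.07 to 2.02; Fisher's exact p = 0.0149, adjusted 0.170). For miR-993 the odds ratio was 0.984 (0.884 to 1.10; Fisher's exact p = 0.787, adjusted 1).

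**Figure D2:**
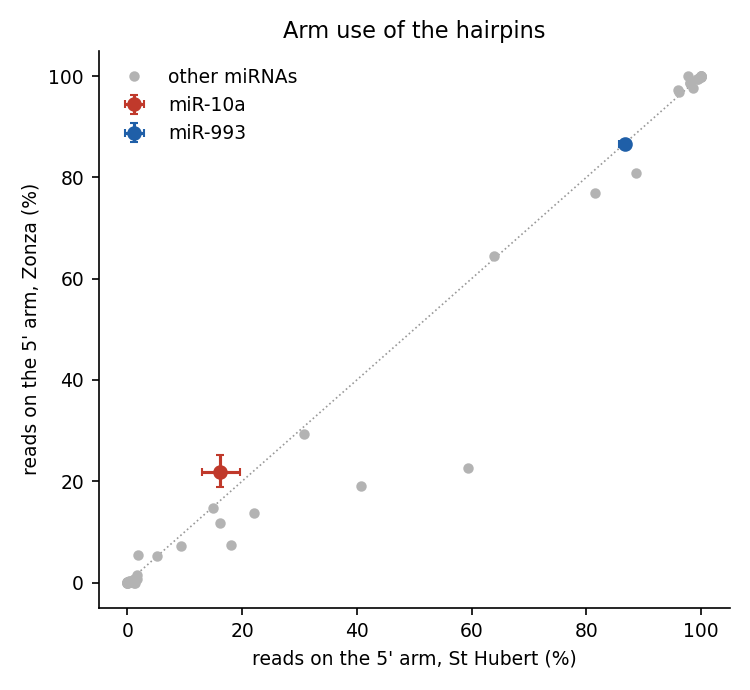
Percent of a hairpin's reads that lay on the 5' arm in St Hubert (x axis) and in Zonza (y axis), for miRNAs with at least 50 reads in both libraries; bars on the members are Wilson intervals and the dotted line marks equal arm use. miR-993 lies at 86.7% and 86.6% and miR-10a at 16.1% and 21.9%, on opposite sides of the plot.

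Both miRNAs took a smaller share of the Zonza library. The ratio of shares, Zonza over St Hubert, was 0.495 for miR-10a (exact interval 0.439 to 0.558) and 0.640 for miR-993 (0.618 to 0.664). A ratio this low was common among the miRNAs listed in both libraries, a set with unequal floors. The lowest listed total was 19 reads in St Hubert and 5 in Zonza, so miRNAs low in St Hubert and higher in Zonza could be missing. Listed in Zonza only were 24 miRNAs, and in St Hubert only 10. The effect of this on the percentages, median and ranks that follow was not tested. Of the 57 miRNAs listed in both libraries, 21.1% were lower in Zonza by 2-fold or more, miR-10a among them, 80.7% were lower at any fold, and the median ratio was 0.765. In order from the lowest ratio, miR-10a stood 12 of 57 and miR-993 21 of 57.

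The size of these ratios depends on miR-989, an ovary miRNA that in flies acts in the follicle cells, whose own share was 77.2% in St Hubert and 83.2% in Zonza. A higher share of miR-989 leaves a lower summed share for the other miRNAs, though single miRNAs can still rise. Shares alone cannot tell more miR-989 from less of the others. With miR-989 left out of the totals, miR-10a made up 0.554% of reads in St Hubert (0.507% to 0.607%) and 0.374% in Zonza (0.346% to 0.403%), a ratio of 0.674 (0.598 to 0.760). miR-993 made up 5.40% (5.26% to 5.56%) and 4.72% (4.62% to 4.82%), a ratio of 0.872 (0.842 to 0.905). The median of all 57 was then 1.04, 45.6% were lower in Zonza and 3.51% were 2-fold or more lower, and miR-10a was no longer past 2-fold. Scaling multiplies all ratios by one factor, so the order of the miRNAs and the place of the members below the median are the same by construction.

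miR-1, a muscle miRNA, had a lower share in Zonza too, 2.56% against 5.66% in St Hubert. Set against it, miR-10a had 22.4 reads per 1000 miR-1 reads in St Hubert and 24.4 in Zonza, a ratio of 1.09 whose interval held 1 (0.967 to 1.23). miR-993 had 218 and 308, a ratio of 1.41 (1.36 to 1.47). With miR-1 as the reference miR-993 was thus higher in Zonza, and miR-10a did not differ beyond counting error. A change of reference multiplies the ratios of all miRNAs by the same factor. Against miR-263a, whose share was 6.65% in St Hubert and 6.06% in Zonza, both stayed lower in Zonza, with ratios of 0.543 for miR-10a (0.481 to 0.613) and 0.703 for miR-993 (0.676 to 0.731). miR-133, the other muscle miRNA on the list, is listed in neither library. In the mRNA libraries all 3 muscle markers had contigs above 0 FPKM. Contigs annotated as myosin heavy chain summed to 214 FPKM in St Hubert and 223 in Zonza. Troponin contigs summed to 145 and 104 FPKM, and those of tropomyosin to 275 and 282. These contigs were matched by name alone, so forms from other tissues were not separated. The ovary markers chorion, vasa and nanos, which check the tissue label, all had contigs above 0. Chorion contigs summed to 3272 FPKM in St Hubert and 10828 in Zonza, while vasa had 82.2 and 67.9 FPKM and nanos 1128 and 925. Of the fat body markers, vitellogenin had 2561 and 4843 FPKM, while hexamerin or arylphorin had 1.83 and 0.22. The nervous system miRNA miR-124 had 23 reads in Zonza and is not listed for St Hubert. The part of muscle or other tissue in the ratios of miR-10a and miR-993 was not tested.

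**Figure D3:**
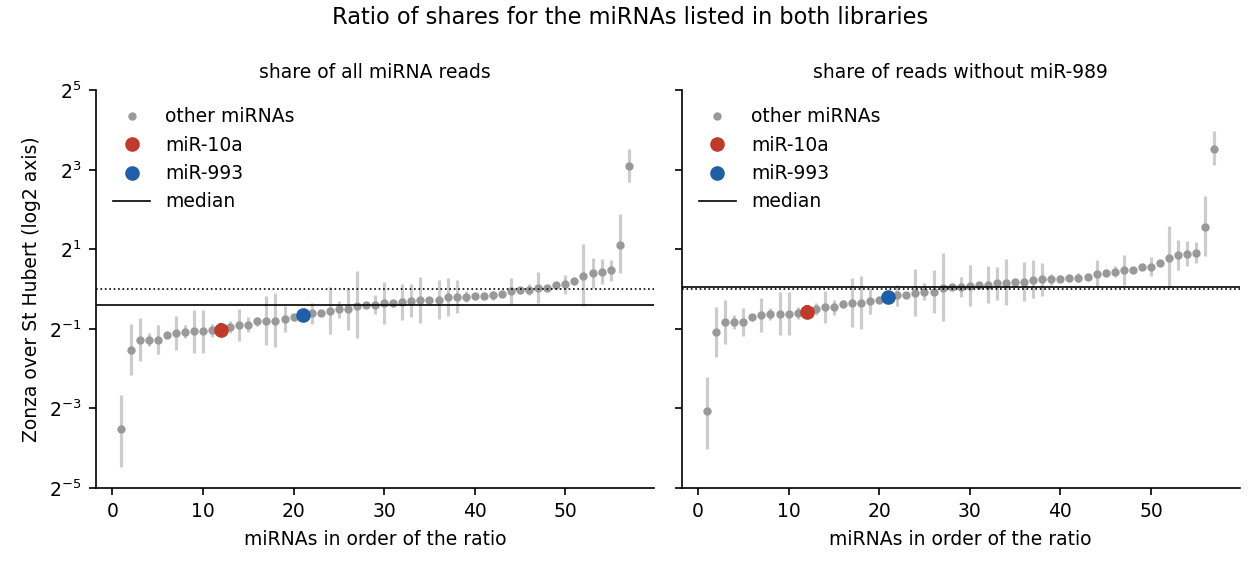
Ratio of shares, Zonza over St Hubert (log2 axis), for the 57 miRNAs listed in both libraries in order of the ratio, as a share of all miRNA reads (left) and of reads without miR-989 (right); grey bars are exact 95% intervals solid lines medians and dotted lines a ratio of 1. miR-10a moves from 0.495 to 0.674 and miR-993 from 0.640 to 0.872 while the median moves from 0.765 to 1.04.

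The ratio of miR-993 to miR-10a reads does not depend on the library total. It was 1.29 times as high in Zonza (exact interval 1.14 to 1.47). The ratio was also taken by arm, and the intervals of the change in the 5' and 3' products overlapped. The miR-993 5' product had 52.6 reads per read of the miR-10a 5' product in St Hubert (41.9 to 66.9) and 49.9 in Zonza (42.3 to 59.3), a change of 0.948 times whose interval held 1 (0.706 to 1.26). The miR-993 3' product had 1.54 reads per read of the miR-10a 3' product in St Hubert (1.35 to 1.75) and 2.17 in Zonza (1.95 to 2.41), a change of 1.41 times (1.19 to 1.67).

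Given per product and scaled to 1000000 miRNA reads (RPM), the miR-10a 3' product had the lowest ratio of the 4 products. It had 1063 RPM in St Hubert and 490 RPM in Zonza, a ratio of 0.460 (exact interval 0.403 to 0.526). The miR-10a 5' product had 204 and 137 RPM, a ratio of 0.674 (0.507 to 0.902). The miR-993 5' product had 10712 and 6844 RPM, a ratio of 0.639 (0.615 to 0.664), and its 3' product had 1636 and 1062 RPM, a ratio of 0.649 (0.588 to 0.717). The last 3 products thus shared nearly one ratio, and the interval of the miR-10a 3' product lay below those of both miR-993 products. It overlapped that of the miR-10a 5' product, which rests on 76 and 144 reads. The 5' reads of miR-10a came to 1.90% of those of miR-993 in St Hubert and to 2.00% in Zonza. The products can be told apart only by the bases from 16 onward, the deposited counts give no read lengths, and whether some miR-993 reads were counted for miR-10a was not tested.

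**Figure D4:**
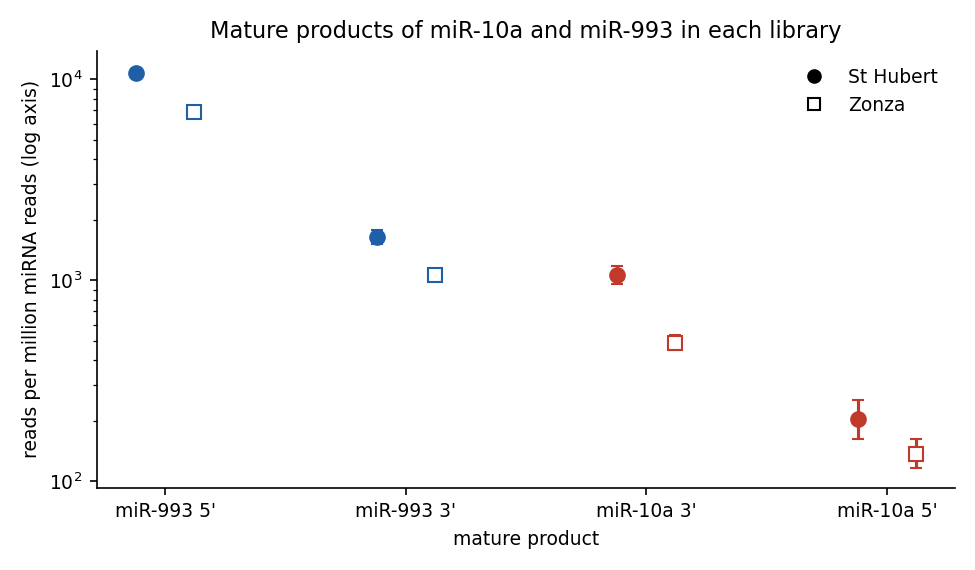
Reads per 1000000 miRNA reads (RPM, log axis) of each mature product of miR-993 and miR-10a, with filled circles for St Hubert, open squares for Zonza and bars for Wilson intervals. The miR-993 5' product leads with 10712 and 6844 RPM, and for miR-10a the 3' product (1063 and 490 RPM) lies above the 5' product (204 and 137 RPM).

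The seed of the miR-10a and miR-993 5' products was also carried by the 3' product of miR-2755. It is shown with the seed in capitals for comparison with the 5' products above.
miR-2755 3' product: cACCCUGUcagaccauacuuguu

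The first base of miR-2755 was another than that of the miR-10a and miR-993 products, so they had the seed in common but no first bases. The 3' arm gave nearly all miR-2755 reads, 4437 out of 4440 for St Hubert and all 10312 for Zonza. Together the products with this seed had 8513 reads and a share of 2.28% in St Hubert (Wilson interval 2.23% to 2.33%), and 17642 reads and a share of 1.68% in Zonza (1.66% to 1.71%). When reads were summed by seed, this seed came at rank 4 in both libraries, after those of miR-989, miR-263a and miR-1. miR-10a supplied 0.893% of these reads in St Hubert and 0.816% in Zonza. miR-993 supplied 47.0% (45.9% to 48.0%) and 40.7% (40.0% to 41.5%), and miR-2755 supplied 52.1% (51.1% to 53.2%) and 58.5% (57.7% to 59.2%).

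The balance within the seed differed between the libraries, with intervals that did not overlap. The miR-993 5' product had 0.902 reads per read of the miR-2755 3' product in St Hubert (exact interval 0.864 to 0.941) and 0.697 in Zonza (0.676 to 0.718), a change of 0.773 times (0.733 to 0.815). The summed reads had a Zonza over St Hubert ratio of 0.737 (0.718 to 0.756) over all miRNA reads and of 1.00 (0.979 to 1.03) without miR-989. On the latter scale miR-993 5' had a ratio of 0.871 (0.837 to 0.905) and miR-2755 3' one of 1.13 (1.09 to 1.17).

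**Figure D5:**
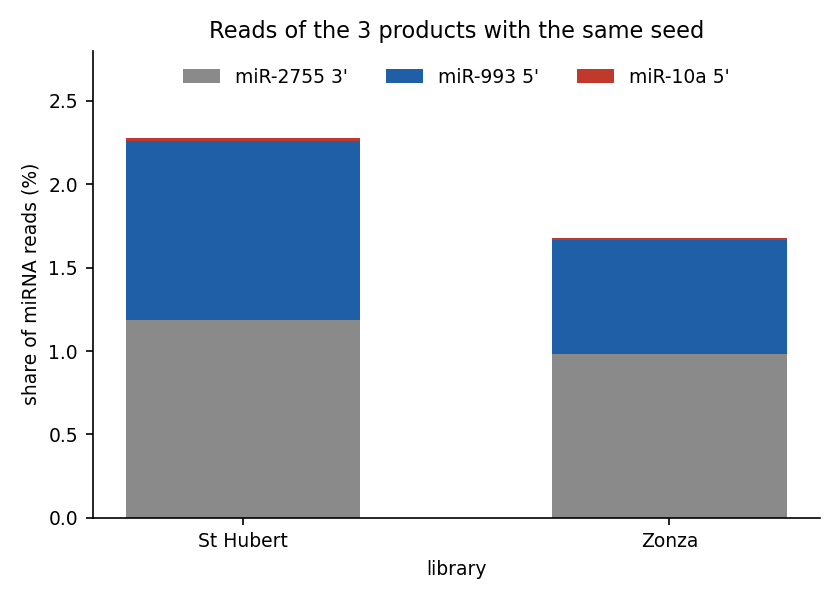
Share of miRNA reads (percent) of the 3 products that have the same seed, stacked for the St Hubert and Zonza libraries. The stacks reach 2.28% and 1.68%, nearly all of it from miR-2755 3' and miR-993 5', and the miR-10a 5' product is a thin band at the top.

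The seed of the miR-993 3' product, AAGCUCG, was shared with the 3' product of miR-6307, with 46 and 114 reads. miR-993 supplied 93.0% of the reads with that seed in St Hubert (90.8% to 94.7%) and 90.7% in Zonza (89.0% to 92.2%).

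The miRNAs whose ratio of shares lay nearest to those of the members, among 55 others with at least 50 reads over both libraries, were found by the difference in log2 ratio over the 2 libraries. For miR-10a they were miR-190, with a ratio of 0.486 (0.437 to 0.542), and Par-340 and Par-341, each with 52 and 70 reads and a ratio of 0.479 (0.330 to 0.699). The paper groups Par-340 and Par-341 because they have 3' arm reads in common. Their counts were the same on both arms, so the same reads may have been counted for both. Both were also counted among the miRNAs that were lower in Zonza by 2-fold or more. For miR-993 they were Par-058 at 0.657 (0.548 to 0.791), miR-279d at 0.661 (0.628 to 0.695) and miR-279a at 0.612 (0.577 to 0.648).

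The Hox genes, beside which these miRNAs lie in other insects, were at low levels in the mRNA libraries of the same ovaries. The deposited values are FPKM (fragments scaled to contig length and library depth) per contig of a joint assembly, with BLAST hits. Genes were named by protein or mRNA hits, since a hit to a genomic record of the whole Hox cluster, which 72 contigs had, does not name a gene. Of the 10 Hox genes searched besides the Shx genes and the cofactors, 6 had a contig, namely labial, proboscipedia, Deformed, Antennapedia, Ultrabithorax and abdominal-A, which give regions along the head-to-abdomen axis their identity. miR-10 lies next to Deformed in insects, and the 1 Deformed contig had 2.20 FPKM in St Hubert and 0.58 in Zonza. The 15 contigs of the 6 genes reached at most 3.66 FPKM in either library, and 82.0% of all 17636 contigs had a higher mean FPKM than any of them. No contig was named for Sex combs reduced, zerknullt, fushi tarazu or Abdominal-B by these hits. The Shx genes are homeobox genes of the lepidopteran Hox cluster that are known for their maternal expression. Their 3 contigs summed to 110 FPKM in St Hubert and 119 in Zonza. The single contigs had 79.1 and 93.3 FPKM, 30.5 and 24.1, and 0.63 and 1.20. The last was within the range of the Hox contigs above. The Hox cofactor extradenticle had 4 contigs, whose summed FPKM was 57.2 in St Hubert and 54.6 in Zonza, while homothorax, its partner, had 0.86 and 1.37 FPKM. The extradenticle contigs were assembled as variants of one gene and differed in opposite directions, with the most abundant at 51.7 FPKM in St Hubert and 2.70 in Zonza and another at 4.22 and 30.4 FPKM.

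Over all their contigs, the 5 of proboscipedia summed to 9.99 FPKM in St Hubert and 0.85 in Zonza, and the 4 of Antennapedia to 1.25 and 7.54 FPKM. The 2 Ultrabithorax contigs summed to 1.33 and 4.55 FPKM, the 2 of abdominal-A to 2.76 and 2.08, and the labial contig had 1.14 and 1.20. Where contigs are fragments of the same transcript, such a sum overstates its level, and this was not tested. An abdominal-A contig with 1.83 and 1.49 FPKM was assembled in the same group as proboscipedia contigs, and its name was not checked further. At such low FPKM these are given as values only. The Hox genes, Shx and the cofactors had 23 contigs in all, of which 19 had a mean of at least 1 FPKM. On the log2(FPKM + 1) scale 13 of the 19 differed by 2-fold or more between the libraries, 7 higher and 6 lower in Zonza, against 39.7% of all 16054 contigs with such a mean (21.7% higher and 18.0% lower). Nothing is read from this count, since contigs at this level often reached the mean only through the library where they were higher. With a pseudocount of 5, 3 of the 19 were past 2-fold, against 24.7% of all contigs, and these were extradenticle contigs. The deposited FPKM come without read counts, and with 1 library per population these differences have no replicate check.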

How the data were processed

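The authors sequenced ovary small RNA and counted reads per miRNA precursor and arm with miRDeep2, cross-checked with quantifier.pl, and deposited raw counts without normalisation. Bowtie is named in the submitters' processing notes, and its version is not given in the sources used here. For mRNA the deposited values are FPKM, which the authors estimated with RSEM for the contigs of 1 Trinity assembly of the pooled reads and kept only for contigs with a BLAST hit. The columns named Belgium and Corsica were taken as St Hubert and Zonza from the paper.

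Counts were divided by the total of listed miRNA reads (St Hubert 373413, Zonza 1049925), with Wilson intervals for shares and exact conditional intervals for ratios, at 95%. Only listed miRNAs enter the totals, and the lowest listed total is 19 reads in St Hubert and 5 in Zonza. Arm use was tested by two-sided Fisher's exact test over 57 miRNAs. TMM factors came from edgeR 4.0.16 in R 4.3.3. Folds came from RNAfold 2.7.2 and alignments from Biopython 1.88, with Python 3.11.15 and scipy 1.17.1. FPKM were compared as log2(FPKM + 1) for contigs with a mean of at least 1 FPKM.

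The members, lists and rules were chosen with earlier results of these data known. The miRNAs named are the members, the other Hox cluster miRNAs, miR-989, miR-263a and miR-1, the neighbours in rank, the 3 nearest in ratio, and those sharing a seed with a member. Splitting ratios by product, summing by seed, summing FPKM over a gene's contigs, naming Hox contigs by protein or mRNA hits, and leaving out UBX domain and DEAF-1 contigs were chosen after the values were seen. A contig with an earlier zerknullt name was counted as Shx by its protein hit. The arm test and the intervals were tried on simulated counts drawn from the models they assume, with planted changes larger than that of miR-10a. This checks the code and does not show that the models hold for these reads. The miR-2b, miR-2c, miR-11, miR-13a and miR-308 hairpins were named after their values were seen. A whole-body share was not used here.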

Additional observations from a re-analysis of the deposited data

How the results depend on the processing

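With 1 library per population no replicate could be left out. No paired analysis was possible because each population has 1 library of each kind. Shares depended on the denominator. Without miR-989, miR-10a held 0.554% in St Hubert and 0.374% in Zonza, and miR-993 5.40% and 4.72%. Without the 3 most abundant miRNAs these were 1.20%, 0.769%, 11.7% and 9.71%, and by dominant arm reads 0.107%, 0.0491%, 1.08% and 0.686%. The Zonza over St Hubert ratio of miR-10a was 0.674 without miR-989, 0.640 without the 3 most abundant, 0.671 with TMM factors and 0.647 with median-of-ratios size factors. For miR-993 the values were 0.872, 0.829, 0.868 and 0.837. These scalings multiplied every ratio by 1.29 to 1.36 by construction, and 2 miRNAs in place of 12 were then 2-fold or more lower in Zonza under the totals without miR-989, TMM and median-of-ratios factors. Totals over the miRNAs listed in both libraries left shares and ratios within their intervals, as did dominant arm reads for the ratios. The Zonza over St Hubert change in the ratio of miR-993 to miR-10a was 0.948 with 5' arm reads. The adjusted p of the miR-10a arm test was 0.137 over the 46 miRNAs with at least 50 reads in both libraries. With a pseudocount of 5, the contigs of the Hox genes, Shx and cofactors past 2-fold numbered 3 in place of 13, and the 3 were extradenticle contigs. Depth limits the miR-10a 5' product, with 76 reads in St Hubert, and the miR-6307 3' product, with 46. For iab-4 the limit is the lowest listed total of St Hubert, 19 reads.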
